A study of Mus musculus with 28 samples.

Results

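The Toll-like receptors of mouse macrophages were examined on Affymetrix whole-genome expression arrays. The members were Tlr1 to Tlr9 and Tlr13, and every probe set whose only annotated gene was one of these was taken. That gave 16 of 45037 probe sets and 10 of 18193 genes. Tlr4 had 4 probe sets, Tlr7 had 3, Tlr3 had 2, and each of the other members had 1.

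All cells were bone marrow-derived macrophages of C57BL/6 J mice that were 12 weeks old, and each of 7 groups had 4 arrays. In the compound experiment (16 arrays), Nrf2-/- cells (KO) were given RA839 or DMSO and Nrf2+/+ cells (WT) were given RA839 or DMSO, all for 4 h at 0.2% DMSO. RA839 binds Keap1, the protein that directs the transcription factor Nrf2 to degradation; its dose was not stated, and the series' design text once writes RA838. In the siRNA experiment (12 arrays), Nrf2+/+ cells carried one of 2 siRNAs against Keap1 (siKeap1-1, siKeap1-2) or a control siRNA (siControl), with the time after transfection not stated. No Toll-like receptor ligand is named for any of the 7 groups, so all levels are those of cells without a stated stimulus. The series describes the 4 arrays of a group as biological replicates, without saying whether they came from separate animals.

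Toll-like receptors are membrane proteins that recognise molecules of microbes. Tlr1, Tlr2, Tlr4, Tlr5 and Tlr6 act mainly at the cell surface, where Tlr2 pairs with Tlr1 or Tlr6 to bind lipopeptides, Tlr4 with its partners Ly96 and Cd14 binds lipopolysaccharide, and Tlr5 binds flagellin. Tlr3, Tlr7, Tlr8, Tlr9 and Tlr13 act in endosomes and recognise nucleic acids. Through the adaptors Myd88 and Ticam1 the receptors activate NF-kB, AP-1 and interferon regulatory factors, and with them cytokine genes.

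Promoters of 5 members called in at least 1 of the comparisons below are printed first, from the RefSeq annotation of build GRCm38.p6. Tlr4 and Tlr7, also called below, were not in that table. Each runs from 250 bases before to 50 bases after the annotated start, on the gene's own strand, and capitals mark letters that matched one of 5 motifs on either strand. The Tlr2 sequence lies at chr3:83841559-83841858, minus strand.
Tlr2: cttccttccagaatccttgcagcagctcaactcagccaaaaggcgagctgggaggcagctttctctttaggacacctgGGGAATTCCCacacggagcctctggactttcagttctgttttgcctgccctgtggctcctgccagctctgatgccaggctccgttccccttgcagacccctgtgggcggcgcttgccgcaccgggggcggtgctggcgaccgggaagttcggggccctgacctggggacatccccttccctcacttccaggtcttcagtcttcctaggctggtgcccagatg
Its capitals are an NF-kB motif, which reads the same on both strands and begins at position -172 from the start site. The Tlr3 sequence lies at chr8:45410331-45410630, minus strand, with an NF-kB match at position -211.
Tlr3: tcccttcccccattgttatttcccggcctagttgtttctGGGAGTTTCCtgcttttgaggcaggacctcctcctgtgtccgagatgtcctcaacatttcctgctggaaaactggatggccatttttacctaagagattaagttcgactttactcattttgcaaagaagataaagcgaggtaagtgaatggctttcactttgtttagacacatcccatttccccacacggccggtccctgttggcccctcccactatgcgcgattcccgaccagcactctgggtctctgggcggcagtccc
The Tlr6 sequence, the first of 2 annotated starts by coordinate, lies at chr5:64959117-64959416, minus strand.
Tlr6: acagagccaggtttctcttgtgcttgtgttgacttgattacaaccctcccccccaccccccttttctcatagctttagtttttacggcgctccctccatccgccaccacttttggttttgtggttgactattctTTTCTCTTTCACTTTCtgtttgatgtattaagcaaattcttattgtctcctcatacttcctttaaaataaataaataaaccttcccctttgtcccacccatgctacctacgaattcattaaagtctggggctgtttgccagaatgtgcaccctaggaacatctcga
Its capitals are 2 overlapping interferon-stimulated response element matches at positions -116 and -110, both on the other strand. The promoter of the other annotated Tlr6 start had 0 matches to any of the 5 motifs. The Tlr9 sequence lies at chr9:106222348-106222647, plus strand.
Tlr9: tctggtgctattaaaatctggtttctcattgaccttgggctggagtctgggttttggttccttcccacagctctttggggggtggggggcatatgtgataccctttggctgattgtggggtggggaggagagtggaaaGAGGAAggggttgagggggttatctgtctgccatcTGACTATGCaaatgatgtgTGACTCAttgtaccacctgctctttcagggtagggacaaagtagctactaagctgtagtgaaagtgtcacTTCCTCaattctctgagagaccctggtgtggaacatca
In it the antioxidant response element core, the letters that Nrf2 with its small Maf partners is known to bind, matched at position -77, the AP-1 motif at position -58, and the PU.1 motif at positions -112 and 13. The Tlr13 sequence lies at chrX:106143025-106143324, plus strand, and matched the PU.1 motif at position -83.
Tlr13: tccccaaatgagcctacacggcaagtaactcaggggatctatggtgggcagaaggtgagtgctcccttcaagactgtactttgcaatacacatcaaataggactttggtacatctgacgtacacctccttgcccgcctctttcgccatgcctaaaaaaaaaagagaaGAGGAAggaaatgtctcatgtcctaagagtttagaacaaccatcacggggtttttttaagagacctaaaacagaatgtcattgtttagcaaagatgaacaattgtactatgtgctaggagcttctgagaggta

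The motifs searched were TGACNNNGC (antioxidant response element core), TGANTCA (AP-1), GAGGAA (PU.1, a factor of myeloid cells), GGG and TTNCC joined by any 2 bases (NF-kB), and a pair of GAAA joined by any 2 bases (interferon-stimulated response element). The first of these can share letters with the AP-1 motif, although the 2 matches in Tlr9 did not overlap. Of 32851 promoters of the same length, 12.4% held the first motif, 7.81% the AP-1 motif, 28.3% the PU.1 motif, 4.79% the NF-kB motif and 3.44% the interferon-stimulated response element. Sequences were found for 8 of the 10 members. A match is a description of the letters and says nothing of binding in these cells.

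The target genes followed the labels. Nfe2l2, which encodes Nrf2, averaged 3.27 ± 0.08 in KO cells with RA839 and 3.40 ± 0.11 in KO cells with DMSO, against 12.30 ± 0.32 and 12.72 ± 0.20 in WT cells with RA839 and with DMSO (log2, SD, n = 4 each). Keap1 averaged 9.06 ± 0.09 with siKeap1-1 and 9.26 ± 0.15 with siKeap1-2, against 11.09 ± 0.10 with siControl. All values are log2 intensities summarised per probe set by RMA, and 7 of 8 measured macrophage markers (all except Cd163) lay above the range of genes that macrophages are not known to express. That range was set at the 90th percentile of 24 such probe sets, 5.92 in the compound experiment and 6.32 in the siRNA experiment. Some arrays stood apart. WT RA839 array 2 had a difference of 3.74 between the 3' and 5' control probe sets of Gapdh, a sign of RNA degradation, against 0.77 to 1.00 on the other 15 compound arrays. KO arrays 3 and 4 differed from KO arrays 1 and 2: 1.82% of probe sets differed at least 2-fold between the means of those pairs under RA839 and 1.95% under DMSO, against 1.22% and 0.695% for the same numbers in WT cells.

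Within that frame the group means of Tlr4 probe set 1430695_at and of Tlr5, Tlr8 and Tlr9 lay in the range of unexpressed genes in all 7 groups. Their differences are therefore between dim signals. Single arrays of Tlr8 exceeded the range: KO arrays 1 and 2 read 6.02 to 6.33 over both conditions, and siControl array 3 read 6.34. The means of the other 12 probe sets exceeded the range in at least 1 group of each experiment. The 4 Tlr4 probe sets did not give 1 answer throughout, and levels are not compared between probe sets, since each has its own probes.

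**Figure D1:**
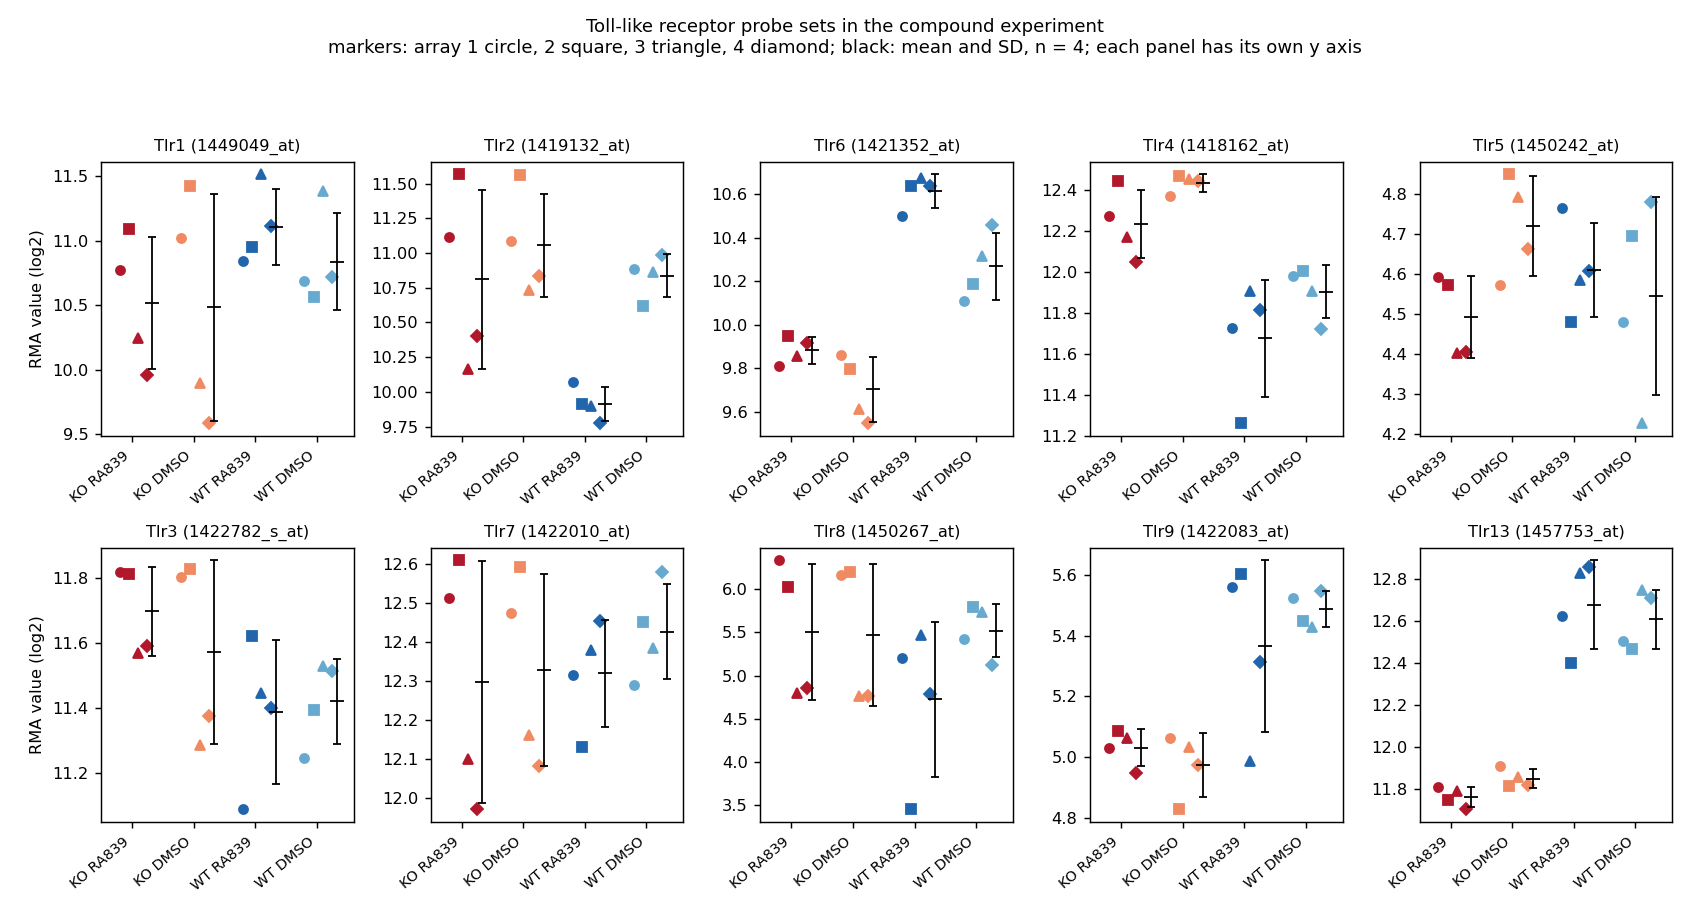
RMA values (log2, y axis) of the brightest probe set of each of the 10 members on the 16 arrays of the compound experiment, grouped as KO RA839, KO DMSO, WT RA839 and WT DMSO; markers show the array number and black bars the mean and SD of 4 arrays. Tlr13 and Tlr6 are lower on every KO array than on every WT array, Tlr4 is higher on every KO array, and Tlr2 is lowest in WT cells with RA839.

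Loss of Nrf2 came with lower Tlr13 and Tlr6 under both RA839 and DMSO. Tlr4 was higher in both on 1418162_at, the only Tlr4 probe set called in both. Tlr9 was also called lower in both, but its values were in the range of unexpressed genes. Its call under RA839 was lost on leaving out any of 12 of the 16 arrays. Tlr13, the endosomal sensor of bacterial ribosomal RNA, fell 1.89-fold under RA839 and 1.69-fold under DMSO. Tlr6, the partner of Tlr2 for diacylated lipopeptides, fell 1.66-fold and 1.48-fold. Tlr4, the lipopolysaccharide receptor, was 1.47-fold and 1.44-fold higher on its brightest probe set. Of the 16 probe sets, 2 were called higher and 3 lower under RA839 (limma adjusted p under 0.05 over all 45037 probe sets), beside 26.3% of all probe sets called. Under DMSO 3 were higher and 3 lower, beside 21.3% of all. Nothing particular to the receptors is drawn from these counts. The median change of the 16 was 0.03 under RA839 and 0.05 under DMSO (log2), against 0.01 and 0.00 over all probe sets. The groups did not overlap for 4 of 16 under RA839 and 5 of 16 under DMSO, beside 27.6% and 26.7% of all probe sets.

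Tlr13 read 11.81, 11.75, 11.79 and 11.70 on the 4 KO arrays with RA839 and 11.91, 11.81, 11.86 and 11.82 on those with DMSO. The WT arrays read 12.63, 12.40, 12.83 and 12.86 with RA839 and 12.51, 12.47, 12.75 and 12.71 with DMSO. Every KO array lay below every WT array, and the KO values were close together. The change in KO cells was -0.92 ± 0.10 under RA839 and -0.76 ± 0.10 under DMSO (SE; limma adjusted p = 1.42e-05 and 0.000124). It was called in every fit that left out 1 array, and also without KO arrays 1 and 2 or without KO arrays 3 and 4.

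Tlr6 read 9.81, 9.95, 9.86 and 9.92 in KO cells with RA839, against 10.50, 10.64, 10.68 and 10.64 in WT cells with RA839. With DMSO it read 9.86, 9.80, 9.61 and 9.55 in KO cells, against 10.11, 10.19, 10.32 and 10.46 in WT cells. Neither pair of groups overlapped, and the gap was wider with RA839. Tlr6 changed by -0.73 ± 0.10 under RA839 and -0.56 ± 0.10 under DMSO (SE; limma adjusted p = 6.52e-05 and 0.000754). It was called in every fit that left out 1 array and without either pair of KO arrays.

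Tlr9, the endosomal receptor for unmethylated CpG DNA, read 5.03, 5.09, 5.06 and 4.95 in KO cells with RA839, against 5.56, 5.60, 4.99 and 5.31 in WT cells with RA839. With DMSO it read 5.06, 4.83, 5.03 and 4.97 in KO cells, against 5.53, 5.45, 5.43 and 5.55 in WT cells. The groups were apart with DMSO and overlapped with RA839, where WT array 3 lay among the KO arrays, and all values were in the range of unexpressed genes. Its log2 change was -0.51 ± 0.12 under DMSO (limma adjusted p = 0.00525; -0.48 without KO arrays 1 and 2, with adjusted p = 0.0612). It was -0.34 ± 0.12 under RA839 (adjusted p = 0.0427), a call lost on leaving out any of 12 of the 16 arrays (all but WT DMSO 2 and 4, WT RA839 3 and KO DMSO 2), with adjusted p up to 0.117.

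For Tlr4, probe set 1418162_at read 12.27, 12.44, 12.17 and 12.05 in KO cells with RA839, against 11.72, 11.26, 11.90 and 11.81 in WT cells with RA839. With DMSO it read 12.37, 12.46, 12.45 and 12.44 in KO cells, against 11.98, 12.00, 11.91 and 11.72 in WT cells. All KO arrays lay above all WT arrays. This difference was 0.56 ± 0.13 under RA839 and 0.53 ± 0.13 under DMSO (SE; limma adjusted p = 0.00454 and 0.00774). The call ended without KO arrays 1 and 2 under RA839 (0.43, adjusted p = 0.0948) and without KO arrays 3 and 4 under DMSO (0.52, adjusted p = 0.0673). WT RA839 array 2, the array with degraded RNA, gave the lowest Tlr4 value of all, and both calls held without it and without any other single array.

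The remaining Tlr4 probe sets changed in the same direction by fitted value. Probe set 1442827_at was 0.78 ± 0.26 higher under DMSO (limma adjusted p = 0.0430) and had a change of 0.48 under RA839 (adjusted p = 0.192). That call was lost on leaving out any of 9 arrays (WT DMSO 1, 2 and 4, WT RA839 1 and 4, KO DMSO 1, 2 and 3, KO RA839 3), with adjusted p up to 0.129, and without KO arrays 1 and 2 (0.47, adjusted p = 0.335). Probe set 1418163_at had changes of 0.36 under RA839 and 0.44 under DMSO, and 1430695_at had 0.09 and 0.23, none of them called.

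Tlr3, the endosomal receptor for double-stranded RNA, was called in 1 of these comparisons on 1 of its probe sets. Probe set 1422781_at read 6.28, 6.40, 6.08 and 6.13 in KO cells with DMSO, against 5.68, 6.14, 5.89 and 5.14 in WT cells with DMSO. WT array 2 lay within the KO values, and the WT mean of 5.71 was in the range of unexpressed genes, so the size of the difference is not settled. The log2 change was 0.51 ± 0.16 (SE; limma adjusted p = 0.0377), and leaving out WT DMSO array 1 or 4 or KO DMSO array 1, 2 or 4 ended the call (adjusted p up to 0.103). The brighter probe set 1422782_s_at had a change of 0.15 under DMSO and 0.31 under RA839, neither called.

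**Figure D2:**
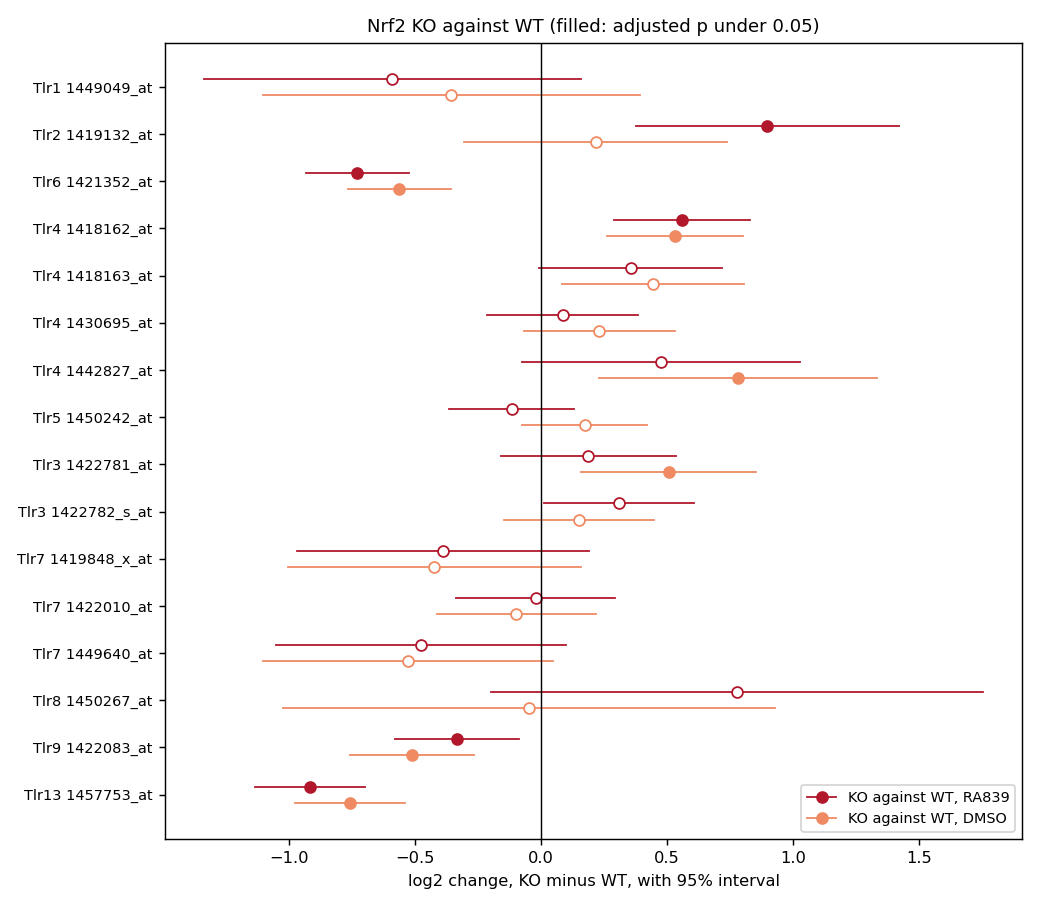
Log2 change of KO minus WT (x axis) for the 16 Toll-like receptor probe sets (rows), with 95% intervals, under RA839 (dark red) and DMSO (orange); filled points have an adjusted p under 0.05. The points of Tlr6, Tlr9 and Tlr13 lie below 0 and those of the 4 Tlr4 probe sets above 0 in both conditions. The intervals of Tlr1, Tlr7 and Tlr8 cross 0 and are wide, except the narrower ones of Tlr7 1422010_at.

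Tlr1, Tlr7 and Tlr8 did not pass the test between genotypes, and their KO arrays fell into separate levels. Tlr1, the partner of Tlr2 for triacylated lipopeptides, read 10.77 and 11.09 on KO arrays 1 and 2 with RA839 and 10.24 and 9.96 on arrays 3 and 4. With DMSO the same arrays read 11.02, 11.43, 9.90 and 9.58. WT arrays read 10.84, 10.95, 11.52 and 11.12 with RA839 and 10.69, 10.56, 11.39 and 10.72 with DMSO. Over the WT arrays of both conditions, KO arrays 1 and 2 lay within the WT range and KO arrays 3 and 4 below it. Within a condition, KO RA839 array 1 lay just below the WT arrays and KO DMSO array 2 just above them.

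Tlr7, a receptor for single-stranded RNA, gave the same layout on probe set 1449640_at. KO arrays read 11.51, 11.58, 10.44 and 10.57 with RA839, against 11.47, 11.40, 11.58 and 11.56 on WT arrays. With DMSO KO arrays read 11.53, 11.73, 10.63 and 10.64, against 11.44, 11.62, 11.77 and 11.80 on WT arrays. KO arrays 3 and 4 lay below all the others. Probe sets 1419848_x_at and 1422010_at had the same layout of KO arrays.

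Tlr8, a close relative of Tlr7, read 6.33, 6.02, 4.80 and 4.86 on KO arrays with RA839, against 5.20, 3.45, 5.47 and 4.78 on WT arrays. With DMSO it read 6.16, 6.20, 4.76 and 4.76 on KO arrays, against 5.43, 5.79, 5.74 and 5.12 on WT arrays. The lowest value of all was on WT RA839 array 2, the array with degraded RNA. Tlr1 and Tlr6, and likewise Tlr7 and Tlr8, are related in sequence, and sharing of probes between them was not tested.

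In all, 9 of the 16 probe sets were lower on KO arrays 3 and 4 than on KO arrays 1 and 2 under both RA839 and DMSO, beside 13.3% of all probe sets, and 0 were higher, beside 16.5%. The 9 were Tlr1, Tlr2, 1 of Tlr3, 2 of Tlr4, all 3 of Tlr7, and Tlr8. In WT cells the same array numbers gave 0 lower, beside 6.99% of all probe sets, and 4 higher, beside 7.45%, in both conditions. Markers of several cell types showed the same split. Of 52 marker genes measured, 23 were lower on KO arrays 3 and 4 in both conditions and 1 was higher (Itgax). The 23 were 6 of 8 macrophage, 5 of 8 neutrophil, 4 of 5 B cell, 3 of 7 conventional and 3 of 6 plasmacytoid dendritic cell, 1 of 5 T and NK cell genes and the 1 measured monocyte gene, Ccr2. That chemokine receptor read 9.30, 9.58, 7.12 and 7.61 on KO arrays with RA839 and 9.33, 9.52, 6.37 and 7.22 on those with DMSO, against 5.89 to 7.39 over the 8 WT arrays. The part of any of these in the receptor values was not tested. Fewer cells of a type and less RNA per cell cannot be told apart in bulk samples.

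Fits without either pair of KO arrays showed how far these receptors depend on them. The pairs were formed after the split was seen in these same values, here and wherever such fits are given. Their p-values therefore describe the dependence on the arrays and are no tests of genotype. Without KO arrays 1 and 2, Tlr1 had changes of -1.01 under RA839 and -1.10 under DMSO (log2; limma adjusted p = 0.0139 and 0.0103). Tlr7 1449640_at then had changes of -1.0 and -1.02 (adjusted p = 0.000320 and 0.000355). Without KO arrays 3 and 4 instead, Tlr1 under DMSO, Tlr7 1419848_x_at under both conditions and Tlr7 1449640_at under RA839 turned to positive values (0.39 for Tlr1, 0.13 under RA839 and 0.082 under DMSO for 1419848_x_at, and 0.043 for 1449640_at, none called), so their direction rests on KO arrays 3 and 4. Tlr7 1422010_at also turned from -0.02 to 0.24 under RA839 and from -0.10 to 0.11 under DMSO. Tlr8 under DMSO turned from -0.05 to 0.66, and these too were not called. In the same fits Tlr8 had a change of 1.45 under RA839 (adjusted p = 0.0377), against 0.10 without arrays 1 and 2. Both Tlr8 values include WT RA839 array 2, the array with degraded RNA, which read 3.45. The split of calls was 0 higher and 5 lower without KO arrays 1 and 2 under RA839, beside 16.8% of all probe sets called in that fit, and 4 higher and 2 lower without arrays 3 and 4, beside 15.9%. Under DMSO it was 1 higher and 5 lower, beside 13.8%, and 2 higher and 3 lower, beside 12.1%.

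**Figure D3:**
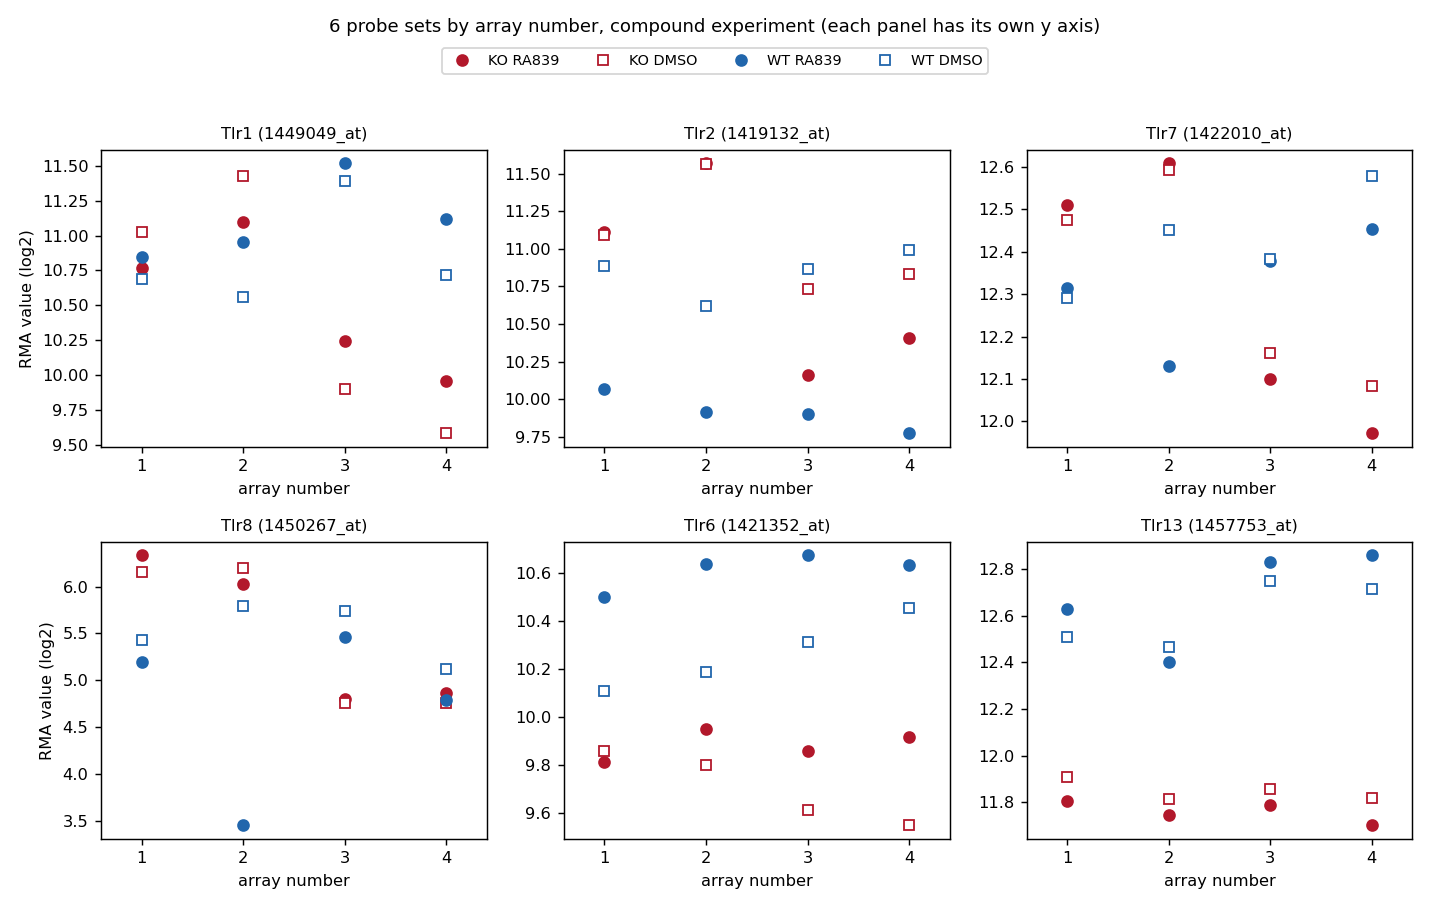
RMA values (log2, y axis) of the brightest probe set of 6 members (for Tlr7, 1422010_at) by array number (x axis) in the compound experiment; red is KO, blue is WT, filled circles are RA839 and open squares DMSO. For Tlr1, Tlr2, Tlr7 and Tlr8 KO arrays 3 and 4 lie below KO arrays 1 and 2, whereas Tlr13 keeps KO below WT at each number.

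Tlr2, which binds lipopeptides with Tlr1 or Tlr6, was the member with the largest change under RA839 in WT cells. It read 10.07, 9.92, 9.90 and 9.77 in WT cells with RA839, against 10.88, 10.62, 10.86 and 10.99 in WT cells with DMSO. The groups did not overlap, with every RA839 array lower. On the log2 scale the change was -0.92 ± 0.25 (SE, 1.90-fold lower), with limma adjusted p = 0.179, so it was not called. Same-numbered WT arrays deviated together (correlations 0.20 to 0.40), though the labels name no pairing. With the array number as a block the limma adjusted p was 0.00837. In a fit of the WT arrays alone it was 0.0216. These fits called 1.29% and 0.169% of all probe sets. Leaving out 1 array at a time gave -1.0 to -0.87, with adjusted p from 0.0746 to 0.351.

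In KO cells Tlr2 read 11.11, 11.57, 10.16 and 10.41 with RA839, against 11.09, 11.56, 10.73 and 10.84 with DMSO. Arrays 1 and 2 read nearly the same in both conditions, arrays 3 and 4 were lower with RA839, and the groups overlapped. The change was -0.24 (95% interval -0.76 to 0.28; adjusted p = 1.00). The response in KO minus that in WT was 0.68 (95% interval -0.06 to 1.42; limma adjusted p = 1.00), so a difference between the genotypes in the Tlr2 response was not shown. Under RA839 Tlr2 was 0.90 ± 0.25 higher in KO than in WT cells (limma adjusted p = 0.0138), with no overlap. Without KO arrays 1 and 2 this was 0.37 (adjusted p = 0.0812), and without KO arrays 3 and 4 it was 1.43 (adjusted p = 0.000266). Under DMSO the change was 0.22 (adjusted p = 0.576).

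Over all members, RA839 in WT cells gave 0 calls of 16, beside 0.344% of all probe sets, and 2 of 16 had an unadjusted p under 0.05, Tlr2 and Tlr6, beside 9.47% of all probe sets. These were also the 2 whose groups did not overlap, beside 5.02% of all probe sets. Tlr6 was 0.35 ± 0.10 higher (limma adjusted p = 0.210), from the values given above, every RA839 array above every DMSO array. The median change was -0.09, against -0.02 over all probe sets. In KO cells there were 0 calls of 16, beside 0.0% of all probe sets, and 0 members had an unadjusted p under 0.05, against 860 of all probe sets. Tlr13 was the 1 member without overlap (-0.09, 95% interval -0.31 to 0.13), beside 2.14% of all. For the difference between the genotypes' responses there were 0 calls, beside 0.0377% of all probe sets. In that comparison 0 members had an unadjusted p under 0.05, against 1624 of all probe sets. The largest fitted differences were 0.83 for Tlr8 (95% interval -0.55 to 2.21) and 0.68 for Tlr2.

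**Figure D4:**
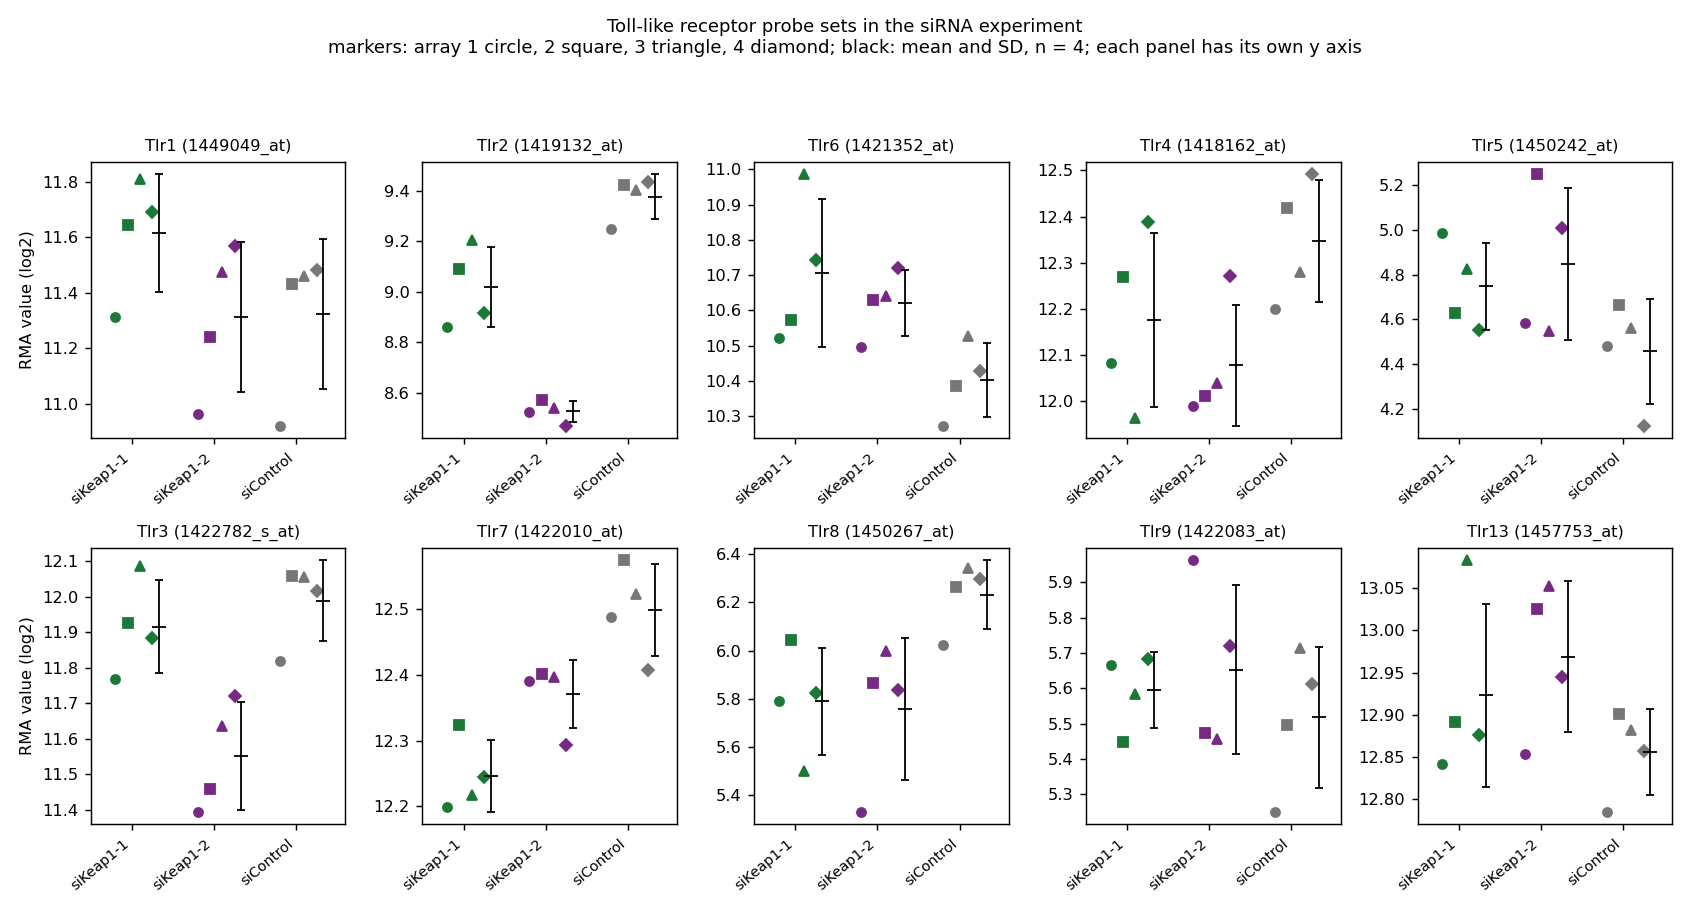
RMA values (log2, y axis) of the brightest probe set of each member on the 12 arrays of the siRNA experiment, grouped as siKeap1-1, siKeap1-2 and siControl; markers show the array number and black bars the mean and SD of 4 arrays. Tlr2 is lower with both Keap1 siRNAs and lowest with siKeap1-2, and Tlr3 is lower with siKeap1-2.

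Both Keap1 siRNAs lowered Tlr2. It read 8.86, 9.09, 9.21 and 8.92 with siKeap1-1 and 8.52, 8.57, 8.54 and 8.47 with siKeap1-2, against 9.25, 9.42, 9.40 and 9.43 with siControl. No group overlapped another. The log2 change was -0.36 ± 0.08 with siKeap1-1 (1.28-fold lower, limma adjusted p = 0.0142) and -0.85 ± 0.08 with siKeap1-2 (1.80-fold lower, adjusted p = 5.40e-05). The siRNAs themselves differed: siKeap1-1 minus siKeap1-2 was 0.49 ± 0.08 (adjusted p = 0.00453). These calls held on leaving out any 1 array, and those of both siRNAs share the 4 siControl arrays. Keap1 itself differed by -0.20 ± 0.08 between siKeap1-1 and siKeap1-2 (adjusted p = 0.277).

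Over all members, 5 of 16 probe sets fell with siKeap1-1 and 4 with siKeap1-2, and 0 rose with either. Of the 5, 3 were probe sets of 1 gene, Tlr7. The siKeap1-1 count was 1 with only the groups compared, 2 of 10 with 1 probe set per gene, 7 of 13 among brighter probe sets, and 1 to 4 on leaving out 1 array. With only the groups compared 3141 of all probe sets were called, with 1 probe set per gene 2741 of all genes, and 5429 among brighter probe sets. The fit as reported called 4301, and its shares are no background for those settings. In it 9.55% of all probe sets were called with siKeap1-1, 4.37% as lower, and 6.78% with siKeap1-2, 3.14% as lower. The median change was -0.10 with siKeap1-1 and -0.12 with siKeap1-2, against 0.00 and 0.01 over all probe sets. Groups did not overlap for 5 of 16 with siKeap1-1, beside 15.7% of all, and for 6 of 16 with siKeap1-2, beside 7188 of all 45037. Same-numbered arrays deviated together in this experiment (correlations 0.11 to 0.63), though the labels name no pairing. With the array number as a block 7 of 16 were called with each siRNA, beside 15.5% of all probe sets with siKeap1-1 and 12.6% with siKeap1-2. Between siKeap1-1 and siKeap1-2, 1 of 16 was called (Tlr2), beside 4.01% of all. With the block 5 of 16 were called, beside 8.39% of all: Tlr2, both Tlr3 probe sets, Tlr1 (0.30, adjusted p = 0.0221) and Tlr4 1418163_at (0.37, adjusted p = 0.0129).

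Tlr3 was called lower with siKeap1-2 on both probe sets, of which 1422781_at was near the range of unexpressed genes. Probe set 1422782_s_at read 11.77, 11.93, 12.09 and 11.88 with siKeap1-1 and 11.39, 11.46, 11.64 and 11.72 with siKeap1-2, against 11.82, 12.06, 12.06 and 12.02 with siControl. The siKeap1-2 arrays all lay below the others and the siKeap1-1 arrays overlapped siControl. The log2 change with siKeap1-2 was -0.44 ± 0.09 (SE; limma adjusted p = 0.0150), lost without siControl array 2 or siKeap1-2 array 2 (adjusted p up to 0.0520).

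The second Tlr3 probe set, 1422781_at, read 6.36, 6.84, 7.19 and 6.58 with siKeap1-1 and 6.02, 5.97, 6.34 and 6.43 with siKeap1-2, against 6.53, 6.92, 6.86 and 7.15 with siControl. Again the siKeap1-2 arrays lay below all siControl arrays, and their mean of 6.19 was in the range of unexpressed genes, so the size of the change is not settled. Its change with siKeap1-2 was -0.68 ± 0.18 (limma adjusted p = 0.0434), lost on leaving out any of 8 arrays (siControl 2, 3 and 4, siKeap1-1 2 and 4, siKeap1-2 1, 2 and 3; adjusted p up to 0.126). With siKeap1-1 the changes were -0.07 and -0.12. The difference between the siRNAs was 0.36 and 0.55 for the 2 probe sets (adjusted p = 0.0526 and 0.128). With the block it was called for both (adjusted p = 0.0105 and 0.0441).

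Tlr4 fell on probe set 1442827_at with both siRNAs. It read 6.29, 7.01, 6.86 and 6.91 with siKeap1-1 and 6.47, 6.66, 6.70 and 6.70 with siKeap1-2, against 7.35, 7.33, 7.02 and 7.48 with siControl. Both siRNA groups lay below the control arrays. The change was -0.53 ± 0.15 with siKeap1-1 (limma adjusted p = 0.0419), lost on leaving out any array but siControl 3, siKeap1-1 2 and siKeap1-2 1 (adjusted p up to 0.114). With siKeap1-2 it was -0.66 ± 0.15 (adjusted p = 0.0175), lost without siControl array 2 or 4 or siKeap1-2 array 1 (adjusted p up to 0.0566).

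The brightest Tlr4 probe set, 1418162_at, read 12.08, 12.27, 11.96 and 12.39 with siKeap1-1 and 11.99, 12.01, 12.04 and 12.27 with siKeap1-2, against 12.20, 12.42, 12.28 and 12.49 with siControl. The groups overlapped in both comparisons. Its changes were -0.17 (limma adjusted p = 0.384) and -0.27 (adjusted p = 0.166; with the block 0.0237). Probe set 1418163_at had changes of 0.11 with siKeap1-1 and -0.27 with siKeap1-2. The value with siKeap1-2 was called only with the block (adjusted p = 0.0385).

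Tlr7 fell with siKeap1-1 on its 3 probe sets. The brightest, 1422010_at, read 12.20, 12.32, 12.22 and 12.25 with siKeap1-1 and 12.39, 12.40, 12.40 and 12.29 with siKeap1-2, against 12.49, 12.57, 12.52 and 12.41 with siControl. The siKeap1-1 arrays lay below all siControl arrays, by a small margin. The change was -0.25 ± 0.06 (SE, 1.19-fold lower, limma adjusted p = 0.0180), lost without siControl array 2 or 3 (adjusted p up to 0.0635). Those of 1419848_x_at and 1449640_at were -0.21 each (adjusted p = 0.0450 and 0.0470), lost on leaving out any array but siKeap1-2 array 2 (adjusted p up to 0.130 and 0.132). With siKeap1-2 the 3 changes ran from -0.13 to -0.10 and were not called, and the siRNAs did not pass the test against each other (adjusted p = 0.338 to 0.468).

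In the fit over all probe sets without the block, 0 of 16 probe sets were called higher with either siRNA. Tlr6 read 10.52, 10.57, 10.99 and 10.74 with siKeap1-1 and 10.50, 10.63, 10.64 and 10.72 with siKeap1-2, against 10.27, 10.38, 10.53 and 10.43 with siControl. Both siRNA groups were mostly above the control, with an overlap at siControl array 3. The changes were 0.30 (limma adjusted p = 0.0848; with the block 0.0180; among brighter probe sets 0.0428) and 0.22 (adjusted p = 0.252). Tlr1 had 0.29 with siKeap1-1 (adjusted p = 0.327; with the block 0.0153) and -0.01 with siKeap1-2. Tlr13 had 0.07 and 0.11 (95% intervals -0.09 to 0.22 and -0.04 to 0.27). Tlr8 had -0.44 and -0.47, the second called with the block (adjusted p = 0.0469) and both among brighter probe sets (adjusted p = 0.0487 and 0.0454). Tlr5 and Tlr9 had 0.08 to 0.39. The group means of Tlr5, Tlr8 and Tlr9 were all in the range of unexpressed genes.

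**Figure D5:**
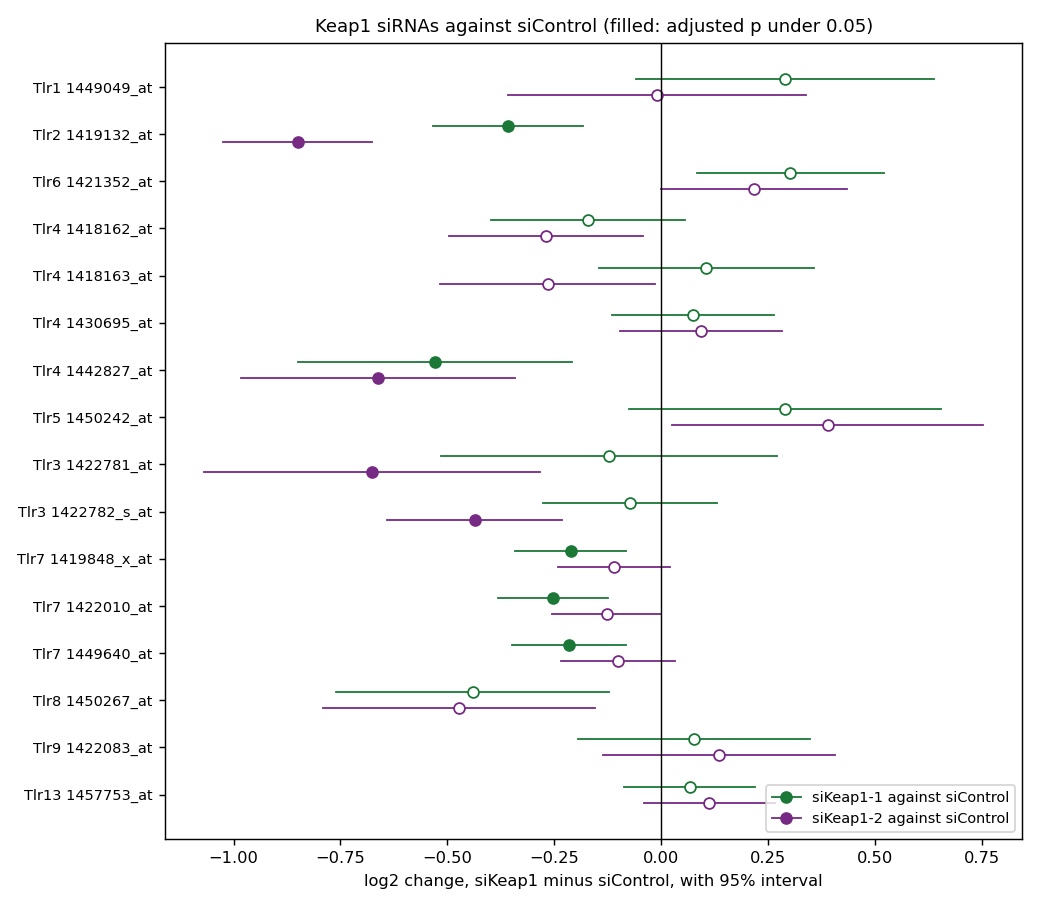
Log2 change of siKeap1 minus siControl (x axis) for the 16 Toll-like receptor probe sets (rows), with 95% intervals, for siKeap1-1 (green) and siKeap1-2 (purple); filled points have an adjusted p under 0.05. All filled points lie below 0, and Tlr2 has the lowest value with siKeap1-2.

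Set side by side, Tlr2 had a change of -0.92 with RA839 in WT cells, -0.36 with siKeap1-1 and -0.85 with siKeap1-2, and Tlr6 had 0.35, 0.30 and 0.22. Tlr13 and Tlr9, lower in KO cells, had 0.07 and -0.12 with RA839 in WT cells. Comparisons within an experiment share control arrays, and the 2 experiments were fitted apart, so no test was made of these values against each other.

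Genes that serve the receptors were read from lists, 1 probe set per gene. Co-receptors and chaperones (15 genes measured) had 2 higher and 2 lower in KO cells under DMSO, and 4 higher and 2 lower under RA839, beside 23.2% and 28.6% of all genes called. Cd14, which hands lipopolysaccharide to Tlr4, read 12.76, 12.92, 12.41 and 12.28 in KO cells with RA839, against 10.52, 10.44, 10.66 and 10.84 in WT cells. With DMSO it read 12.80, 12.77, 12.89 and 12.86 in KO cells, against 10.89, 10.84, 10.98 and 11.29 in WT cells. The gap between genotypes was over 1 log2 unit on every array. Its change was 1.98 ± 0.14 under RA839 and 1.83 ± 0.14 under DMSO (limma adjusted p = 7.95e-08 and 4.36e-07).

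In the same list Slc11a1, a phagosomal metal transporter, had changes of -2.41 and -2.31 in KO cells under RA839 and DMSO. Cd36, a scavenger receptor that assists Tlr2, had -0.98 and -0.97, and Cnpy3, a chaperone of the receptors, had 0.75 and 0.51. With the siRNAs 4 of the 15 were higher and 3 lower for siKeap1-1, and 4 higher and 4 lower for siKeap1-2, beside 12.2% and 8.84% of genes called. Cd14 fell by 0.58 with siKeap1-1 and by 0.91 with siKeap1-2 (adjusted p = 0.00766 and 0.000531). Slc11a1 rose by 0.56 and 0.48, and Cd180, which resembles Tlr4 and restrains it in macrophages, had -0.40 and -0.49. With RA839 in WT cells 0 of 15 were called, beside 0.506% of genes.

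Adaptors, kinases and ligases next to the receptors (21 genes measured) had 4 higher and 4 lower in KO cells under RA839 and 4 higher and 3 lower under DMSO, beside 28.6% and 23.2% of all genes called. Myd88, the adaptor of all members except Tlr3, was 0.38 and 0.34 higher, and Tirap, which bridges Tlr2 and Tlr4 to Myd88, was 0.56 and 0.58 higher (adjusted p = 0.000958 and 0.000949). Pik3ap1, of the same list, had -0.87 and -0.88. Ikbkg, the regulatory subunit of the IkB kinase complex, fell by 1.20 and 0.66. Ikbkg was also the 1 gene of these lists called with RA839 in WT cells, 0.65 ± 0.10 higher (adjusted p = 0.00530). It rose by 0.36 with siKeap1-1 and by 0.50 with siKeap1-2. With siKeap1-1 3 were higher and 5 lower, among them the ubiquitin ligase Peli2 (-1.0) and Tirap (-0.62). siKeap1-1 minus siKeap1-2 was -0.93 for Peli2 and -0.43 for Tirap (adjusted p = 0.00143 and 0.00363). With siKeap1-2 3 were higher and 2 lower. Of all genes 12.2% were called with siKeap1-1 and 8.84% with siKeap1-2.

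Inhibitors of the signal (18 genes measured) had 5 higher and 1 lower in KO cells under RA839 and 4 higher and 1 lower under DMSO, near the 28.6% and 23.2% of all genes called. Nfkbiz, a nuclear IkB protein, was 1.36 and 0.97 higher, and Zc3h12a, an RNase that degrades cytokine transcripts, was 0.98 and 1.19 higher. With siKeap1-1 1 was higher and 2 lower, beside 12.2% of all genes, and with siKeap1-2 0 were higher and 4 lower, beside 8.84%, among them Nfkbiz (-0.55, adjusted p = 0.000472). Of 14 transcription factors downstream, 3 were higher and 2 lower in KO cells under RA839 and 2 higher and 0 lower under DMSO, beside 28.6% and 23.2% of all genes. Irf7, the interferon regulator that Tlr7 and Tlr9 engage, was 1.87 and 1.86 higher. With each siRNA 0 were higher and 3 lower, beside 12.2% and 8.84% of all genes, and Fos, a subunit of AP-1, had -0.49 with siKeap1-1 and -0.64 with siKeap1-2.

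Among 20 other pattern recognition receptors 0 were higher in KO cells, and 7 were lower under RA839 and 5 under DMSO, where 14.9% and 12.9% of all genes were lower (28.6% and 23.2% in either direction). The lectin receptor Clec4n had -1.22 and -1.05, and its relative Clec4d had -0.83 and -0.67. Tlr12, a profilin receptor of mice that is no member here, was lower on its brightest probe set (-0.38 and -0.51) and higher on its other, 1437931_at (0.59 and 0.68), each called, so it has no settled direction. With siKeap1-1 3 were higher and 1 lower, beside 12.2% of all genes called, and with siKeap1-2 0 were higher and 4 lower, beside 8.84%. The scavenger receptor Msr1 fell by 0.43 and 0.57 with siKeap1-1 and siKeap1-2.

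Marker lists of other cells moved with some of these groups. The summed level of 8 neutrophil genes was 10.86 to 11.23 (log2) in KO cells with RA839, against 11.63 to 12.10 in WT cells. With DMSO it was 10.99 to 11.55 in KO cells, against 12.12 to 12.26 in WT cells. S100a8 alone read 10.68 to 10.91 in KO cells with RA839, against 11.54 to 11.81 in WT cells. Of the 8 genes, 1 was called lower under RA839 (S100a8) and 3 under DMSO, and 0 were called higher. Of all genes 28.6% and 23.2% were called, 14.9% and 12.9% as lower. Above 0 were 2 of the 8 under RA839 and 1 under DMSO. Elane, Mpo, Ctsg and Camp lay in the range of unexpressed genes in all 4 groups. The summed level of 6 plasmacytoid dendritic cell genes was 12.68 to 13.11 in KO cells with RA839, against 12.10 to 12.50 in WT cells. Siglech, Ly6d, Spib and Ccr9 lay in the range of unexpressed genes. The 6 genes did not move together under RA839, where 3 were above 0 and 3 below. Bst2 and Tcf4 were called higher in KO cells (0.76 and 0.46) and Ccr9 lower (-0.56), beside 28.6% of all genes called. Bst2 and Tcf4 were also lower on KO arrays 3 and 4 than on KO arrays 1 and 2. With RA839 Bst2 read 11.91, 11.95, 11.35 and 11.30 on KO arrays, against 10.38 to 11.11 on WT arrays. The lowest of these was on WT RA839 array 2, the array with degraded RNA. The macrophage sum was 16.13 to 16.30 in KO cells and 16.16 to 16.32 in WT cells. In the siRNA experiment it was 16.37 to 16.42 with siKeap1-1 and 16.36 to 16.40 with siKeap1-2, against 16.46 to 16.50 with siControl. Fcgr1, an IgG receptor of that list, fell by 0.72 with siKeap1-1 and by 1.06 with siKeap1-2 (limma adjusted p = 0.00152 and 0.000124). In KO cells Fcgr1 was 2.23 and 1.98 higher under RA839 and DMSO. Itgam, of the same list, went the other way in KO cells, with -0.80 and -1.04 (limma adjusted p = 0.000444 and 7.01e-05). In each condition 1 of the 8 macrophage genes was called higher and 1 lower, beside 28.6% and 23.2% of all genes called. Below 0 were 6 of the 8 under RA839 and 5 under DMSO. Ccr2 read 7.01 to 8.35 with siKeap1-1 and 7.39 to 7.82 with siKeap1-2, against 8.08 to 8.83 with siControl. Its changes were -0.64 and -0.76, with no overlap for siKeap1-2 (adjusted p = 0.128 and 0.0871). The neutrophil sum was 12.46 to 13.16 with siKeap1-1 and 12.49 to 13.45 with siKeap1-2, against 11.85 to 13.01 with siControl. Its genes did not move together: 6 of the 8 were below 0 with siKeap1-1, and 7 above 0 with siKeap1-2. S100a8 read 12.35 to 12.78 with siKeap1-1 and 12.37 to 12.87 with siKeap1-2, against 11.64 to 12.24 with siControl. S100a9 read 6.90 to 10.86 and 7.42 to 11.49, against 7.36 to 11.41. The part of any of these in the receptor levels was not tested.

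The genes whose pattern lay nearest to 3 members were found by the root mean square difference over the 28 arrays, each gene centred within its experiment. Nearest to Tlr13 were Alas1, Lipa and Creg1, at 0.10 to 0.11 log2 units, against a median of 0.38 over 18183 genes. Nearest to Tlr6 were Nagk, Wdr1 and Pomgnt2, at 0.11 to 0.13. Nearest to Tlr4 were Pias1, Mier3 and Sulf2, at 0.11 each. These share the genotype difference of the member, and the measure says nothing beyond likeness of values.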

How the data were processed

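The deposited table holds 1 log2 intensity per probe set and array, which the authors made with RMA, per the submitters' processing notes. Its version, filters and genome build were not stated. RMA shrinks differences between dim probe sets. Of 45101 probe sets, 64 controls were left out. The platform annotation gave 1 gene to 34945, several to 932 and none to 9160; 34741 matched RefSeq. Genes outside the family were read from their brightest probe set, by the mean of 28 arrays.

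The experiments were fitted apart in limma 3.58.1 under R 4.3.3, with group means as coefficients and eBayes moderation, two-sided, with Benjamini-Hochberg adjustment over 45037 probe sets and a call at 0.05. There were 8 comparisons, including the interaction. Files hold no depth, and the number of arrays limits the precision. P-values measure only the spread between the arrays, which may be technical. Identical values were held by 0 pairs of arrays.

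Same-numbered arrays deviated together within WT (correlations over probe sets 0.20 to 0.40), within KO (0.58 to 0.60) and in the siRNA experiment (0.11 to 0.63), above the minimum of 0.1. Between genotypes they did not (-0.22 to -0.01). The numbers are from the labels. On simulated arrays of 45037 probe sets, KO against WT under DMSO recovered 44% of 1.5-fold and 82% of 2-fold changes, and RA839 in WT recovered 56% and 86%.

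The members, gene lists and tests were chosen with earlier results of these data known. All probe sets of the members are described. Of each list, up to 5 called genes of the largest change per comparison could be named. Myd88 was named outside that rule, with the smallest change of the called adaptor genes in KO against WT in both conditions. Likeness was measured for the 3 members with the largest KO minus WT change under DMSO. Alternatives were a trended robust prior, brighter probe sets, other normalization, array weights, all or only the compared groups in 1 fit, the replicate block, stricter thresholds, and arrays left out in turn. Leaving out pairs of KO arrays was added after the data were seen.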

Additional observations from a re-analysis of the deposited data

Results flagged for a closer look

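In 5 of 112 sets of 4 arrays (4.46%; chance alone gives about 1 in 20), 1 array lay far from the other 3. For Tlr1, siControl array 1 read 10.92, with the others at 11.43 to 11.48. For Tlr2, siControl array 1 read 9.25, with the others at 9.40 to 9.43. Tlr4 probe set 1418163_at read 8.33 on siKeap1-1 array 1, with the others at 8.73 to 8.80. Tlr4 probe set 1430695_at read 4.37 on KO DMSO array 3, with the others at 4.06 to 4.11, all in the range of unexpressed genes. Tlr7 probe set 1422010_at read 12.29 on siKeap1-2 array 4, with the others at 12.39 to 12.40.

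The Tlr2 effect differed between the Keap1 siRNAs: siKeap1-1 minus siKeap1-2 was 0.49 (log2; limma adjusted p = 0.00453). It was higher with siKeap1-1 on each of its 4 arrays than on any siKeap1-2 array.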

How the results depend on the processing

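Of 128 member results (16 probe sets in 8 comparisons), 41 were called under at least 1 setting. Among their 1043 values under alternatives, 120 lost a call, 36 gained one and 4 changed sign, all 4 uncalled and without KO arrays 3 and 4: Tlr1 under DMSO (0.39), Tlr7 1419848_x_at under RA839 (0.13) and DMSO (0.082), and Tlr7 1449640_at under RA839 (0.043), in KO against WT. Of the 87 results called under no setting, 32 changed sign in 94 of 2240 values, all with a log2 change of at most 0.24 as reported. Counts of called probe sets, of 16, moved as follows; which setting's change causes a move was not tested.

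RA839 in WT had 0 calls, and 1 (Tlr2) both with only the groups compared and with the replicate block. KO against WT under RA839 had 5, with 3 at adjusted p under 0.01 and 3 at 1.5-fold or more. Under DMSO it had 6, with 2 at 1.5-fold or more. siKeap1-1 had 5, with 7 of 13 among brighter probe sets (1 higher), 7 with the replicate block (2 higher), 3 after centring arrays on their medians, 1 with only the groups compared, 2 with 1 probe set per gene, 3 without probe sets matching several transcripts, and 0 at either stricter threshold. siKeap1-2 had 4, with 2 for 1 probe set per gene, 7 with the replicate block and 1 at adjusted p under 0.01. siKeap1-1 against siKeap1-2 had 1, with 2 under the trended robust prior, brighter probe sets, centring, 1 probe set per gene or array weights, 5 with the replicate block and 0 at 1.5-fold or more. The block changed no other call within a genotype or in the siRNA experiment beyond those given above.

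Leaving out 1 array at a time gave 0 to 0 calls for RA839 in WT, in KO and for the interaction. It gave 4 to 5 for KO against WT under RA839, 4 to 7 under DMSO, 1 to 4 for each siRNA, and 1 to 3 between them.

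Over all probe sets, RA839 in WT had 155 calls and 76 to 579 across the settings, and the interaction had 17 and 2 to 61. KO against WT had 11864 and 7170 to 13799 under RA839, and 9592 and 5440 to 11893 under DMSO. siKeap1-1 had 4301 and 2854 to 6982, siKeap1-2 had 3053 and 1983 to 5674, and their comparison had 1804 and 1043 to 3780. The 4 arrays per group limit small changes: 10% of simulated 1.5-fold interactions were recovered.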
